A study of Mus musculus with 24 samples.

Results

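Cdkn1a, Btg2, Ccng1, Sertad1, Phlda3, Sesn1, Tigar, Trp53inp1, Polk and Ercc5 are p53 target genes that act in cell cycle arrest, stress adaptation and DNA repair. They were picked by gene symbol as targets with these roles, and make up 10 of the 26267 genes in the deposited table. All 10 were measured in LSK cells, the lineage-negative, Sca-1-positive and Kit-positive cells sorted from mouse bone marrow, among which are the stem cells and first progenitors of blood. Polyadenylated RNA was sequenced in 24 libraries. With poly(I:C), which mimics viral double-stranded RNA and sets off an interferon response, there were 2 libraries of FancgKO_Mdm4Tg (Fancg knockout with an Mdm4 transgene), 3 of FancgKO (Fancg knockout), 2 of Mdm4Tg (Mdm4 transgene) and 3 of WT (wild type). With PBS, the vehicle, there were 3 libraries of FancgKO_Mdm4Tg, 4 of FancgKO, 3 of Mdm4Tg and 4 of WT. The labels give no age, strain, dose or time after injection, and no promoter or cell type for the transgene. Nor do they say that libraries came from separate animals, so each p-value reflects the spread among libraries alone, and that spread may be technical.

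The transcription factor p53 is kept at a low level by its partners Mdm2 and Mdm4 and is released from them when DNA is damaged. It then binds pairs of half-sites near its target genes and raises their transcription. Some targets halt the cell cycle or help the cell to repair DNA and survive, while others trigger cell death. Fancg belongs to the Fanconi anaemia pathway, which repairs crosslinks between DNA strands, and blood stem cells without this pathway are known for p53 activation and loss of repopulating capacity.

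The promoters that hold a match to the p53 half-site consensus are shown first, because p53 acts on its targets by binding such sites. RefSeq promoters (GRCm38.p6) were searched from 250 bases before to 50 after each start. The consensus is its own reverse complement, so both strands were covered, and overlapping matches would each have been counted. Promoter entries were matched by symbol for 9 of the 10 genes, 12 promoters in all, and Trp53inp1 had none matched. A half-site occurred in 4 of these 12 promoters, against 2745 of all 32851 promoters (8.36%). The 4 are printed 5′ to 3′ on the strand of the gene, with each half-site in capitals.
Cdkn1a promoter, chr17:29090729-29091028, plus strand: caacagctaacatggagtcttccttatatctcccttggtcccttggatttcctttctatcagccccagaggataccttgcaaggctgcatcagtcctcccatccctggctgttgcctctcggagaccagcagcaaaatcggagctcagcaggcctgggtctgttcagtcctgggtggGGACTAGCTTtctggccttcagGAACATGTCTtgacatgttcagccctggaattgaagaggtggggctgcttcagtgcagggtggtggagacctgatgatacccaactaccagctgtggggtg
Ccng1 promoter, chr11:40755237-40755536, minus strand: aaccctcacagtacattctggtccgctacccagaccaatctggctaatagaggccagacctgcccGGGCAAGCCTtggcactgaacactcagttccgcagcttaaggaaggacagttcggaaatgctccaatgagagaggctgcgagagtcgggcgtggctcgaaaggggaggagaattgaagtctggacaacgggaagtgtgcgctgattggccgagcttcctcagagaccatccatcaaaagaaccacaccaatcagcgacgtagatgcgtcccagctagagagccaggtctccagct
Sesn1 promoter, chr10:41887189-41887488, plus strand: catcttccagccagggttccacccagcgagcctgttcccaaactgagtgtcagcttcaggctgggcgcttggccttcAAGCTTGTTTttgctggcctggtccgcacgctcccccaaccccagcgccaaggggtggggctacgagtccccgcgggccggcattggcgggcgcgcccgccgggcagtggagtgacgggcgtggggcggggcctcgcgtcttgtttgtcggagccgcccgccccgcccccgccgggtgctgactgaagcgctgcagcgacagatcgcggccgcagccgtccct
Polk promoter, chr13:96519138-96519437, minus strand: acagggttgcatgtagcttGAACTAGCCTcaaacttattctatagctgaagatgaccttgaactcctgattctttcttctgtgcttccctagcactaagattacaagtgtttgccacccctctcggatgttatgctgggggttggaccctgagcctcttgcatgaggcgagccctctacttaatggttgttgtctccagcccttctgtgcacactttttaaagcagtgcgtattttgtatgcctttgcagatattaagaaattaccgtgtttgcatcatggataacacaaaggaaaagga
Only the Cdkn1a promoter among these held a pair of exact matches, GGACTAGCTT and GAACATGTCT, which begin 73 and 51 bases before the start of that promoter. The bases that directly follow GAACATGTCT, tgacatgttc, miss the consensus at their first base and were not counted as a half-site. Whether p53 binds any of these sites was not tested. Pairs with 0 to 13 bases between them occurred in 24 of the 32851 promoters (0.073%). A second promoter each of Cdkn1a, Sesn1 and Polk in RefSeq, and those of Btg2, Phlda3, Sertad1, Tigar and Ercc5, held no match in the window. This says nothing about sites farther away. The second Polk promoter, chr13:96542530-96542829, and the second Sesn1 promoter, chr10:41810324-41810623, lie upstream of those printed. The second Cdkn1a promoter, chr17:29093519-29093818, lies downstream.

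The libraries held 807686 to 8229715 reads (median 2583130). Their titles end in _d (12 libraries, replicate numbers 6 and 7) or _d_2 (12 libraries, numbers 2, 4 and 8), and the labels do not say what the endings mean. Both endings occur in every group, but libraries with the 2 endings stood apart, so values are also given within each ending. The poly(I:C) libraries ending _d_2 were the 4 deepest, at 5491225 to 8229715 reads. Xist, which is made by the inactive X chromosome of female cells, was at a normalised count of at least 362.5 in 6 libraries, all ending _d, and at most 24.78 in the other 18. Of the 6, 2 were FancgKO with poly(I:C), 2 WT with poly(I:C) and 2 FancgKO with PBS. The 10 transgenic libraries had Mdm4 at 5023 to 7105, against 750.9 to 1293 in the 14 others. With PBS, Fancg was at 26.13 to 67.06 in FancgKO and 39.78 to 71.41 in FancgKO_Mdm4Tg, against 61.45 to 71.91 in WT and 41.25 to 68.01 in Mdm4Tg, so the ranges overlapped. The total Fancg count cannot check the knockout, since reads outside a deleted part may remain. Of the markers of the sort, Kit was at 1483 to 2075 (mean 1710) with poly(I:C) and 1710 to 2414 (mean 2043) with PBS, and Ly6a, which encodes Sca-1, was at 14.18 to 40.99 with poly(I:C) and 11.69 to 45.91 with PBS. Of these 2 genes, 1 was lower with poly(I:C) at an adjusted p under 0.05 (limma, averaged over genotypes), beside 11.6% of all genes. Likewise 1 was lower in _d than in _d_2, beside 23.6% of all genes. Of 15 markers of mature blood cells, 4 were high enough to be tested.

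Per kilobase of exon, the WT libraries with PBS ranked the genes from Btg2, an antiproliferative cofactor of mRNA decay, to Phlda3, a competitor of Akt for membrane lipids. The mean level was 102.4 ± 78.1 normalised counts per kilobase for Btg2, 80.1 ± 9.95 for Sesn1, 79.7 ± 10.9 for Ccng1 and 48.9 ± 16.7 for Trp53inp1 (SD, n = 4). Btg2 ranked first through the libraries ending _d, at 472.5 and 459.9 normalised counts before scaling, against 89.64 and 101.1 in those ending _d_2. The ranges of Btg2, Sesn1 and Ccng1 overlapped, and that of Trp53inp1 overlapped with Btg2's and lay below those of Sesn1 and Ccng1. Polk followed at 13.9 ± 1.99, and then came Ercc5 at 8.61 ± 1.47, Cdkn1a at 8.28 ± 4.24, Sertad1 at 6.53 ± 1.90 and Tigar at 6.09 ± 1.82 normalised counts per kilobase. The ranges of the last 4 overlapped, and Polk lay above Ercc5. Phlda3 was lowest, at 2.46 ± 1.70, and overlapped with Tigar. All 10 genes passed the filter on low values, which asked for a normalised count of 10 or more in 2 or more libraries. Phlda3 passed through 2 FancgKO libraries with PBS and had 0 to 14 reads in any library, and Sertad1 reached the count in 8 libraries with 3 to 23 reads in any library, so small changes in these 2 were not detectable at this depth.

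**Figure D1:**
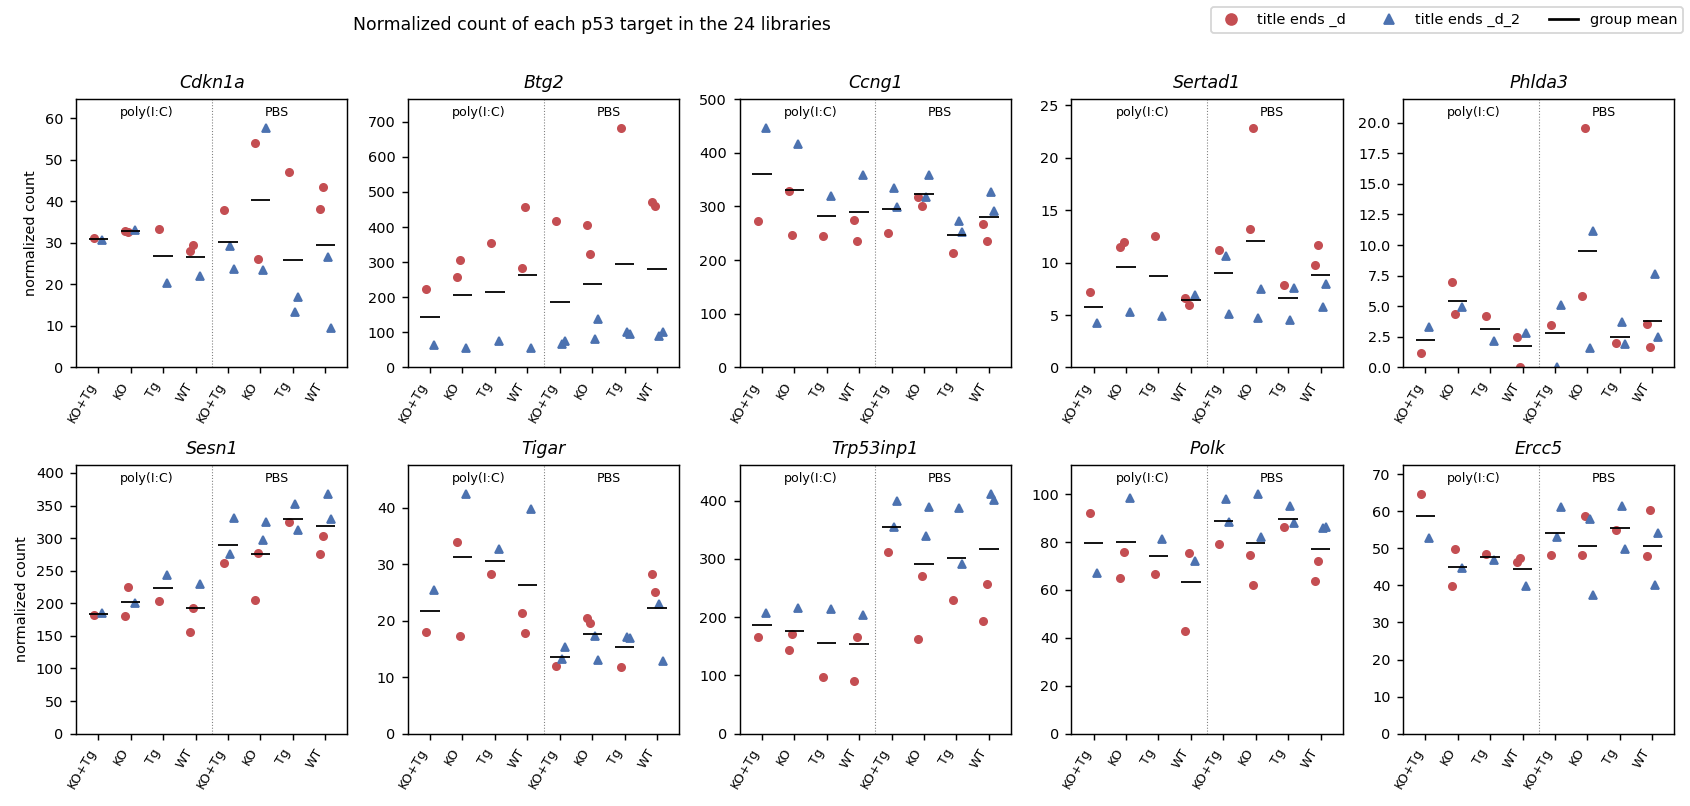
Normalised count of each of the 10 genes (vertical axes, from 0) in the 24 libraries, with the 4 genotypes given poly(I:C) left of those given PBS (KO, FancgKO; Tg, Mdm4Tg); red circles are libraries ending _d, blue triangles libraries ending _d_2, and bars group means. Sesn1 and Trp53inp1 lie lower with poly(I:C), and Btg2 splits by title ending, at 222.8 to 683.6 in _d libraries and 54.44 to 137.9 in _d_2 libraries.

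Whether loss of Fancg alone changes these genes in unstimulated cells is addressed by FancgKO against WT with PBS. No member passed at an adjusted p of 0.05 (limma on log2 of the normalised count plus 1, Benjamini-Hochberg over all 12628 tested genes), against 0% of all tested genes. The 10 genes split into 5 positive and 5 negative, with a median log2 difference of 0.017, beside a median of -0.0063 and 48.7% positive over all genes. None of the 10 reached an unadjusted p of 0.05, and 497 of all genes did.

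Among the arrest genes, Cdkn1a encodes p21, the inhibitor of cyclin-dependent kinases through which p53 stops the cell cycle. It stood at 23.50, 57.75, 54.05 and 26.13 normalised counts in FancgKO with PBS, against 26.70, 38.05, 43.48 and 9.42 in WT with PBS. A pair of the FancgKO libraries lay above every WT library and the other pair lay within the WT range. The log2 difference was 0.53 ± 0.41 (SE, n = 4 and 4; 95% interval -0.31 to 1.37; limma adjusted p = 0.999). Within libraries ending _d it was -0.11, so its direction depended on the library set, and with the replicate number as a block it was 0.18 ± 0.34 (limma adjusted p = 0.887). Ccng1, which encodes cyclin G1, a partner of the phosphatase PP2A that feeds back on p53, had 318.0, 359.5, 318.4 and 300.5 in FancgKO with PBS, against 326.1, 267.2, 235.8 and 290.9 in WT with PBS. The groups overlapped through a single WT library, and the log2 difference was 0.22 ± 0.18 (SE; limma adjusted p = 0.999). Btg2 differed by -0.11 ± 0.84, with an interval from -1.85 to 1.62. With the ending as a covariate it was at -0.11 ± 0.19, and with the replicate block at -0.32 ± 0.17, and it passed in neither (limma adjusted p = 0.917 and 0.506). Sertad1, a regulator of cyclin-dependent kinase and E2F activity, differed by 0.25 ± 0.43.

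Phlda3, which holds back Akt signalling, passed the filter on low values only through 2 of these FancgKO libraries, so its difference is a description, 0.90 ± 0.66 on the log2 scale (SE, n = 4 and 4). Its normalised counts were 1.57, 11.18, 5.84 and 19.60 in FancgKO with PBS, against 7.63, 3.54, 1.67 and 2.48 in WT with PBS, and the groups overlapped. The value of 19.60 came from the shallowest library, where a single read was worth 3.27. The stress genes were at -0.22 ± 0.15 for Sesn1, a sestrin that restrains mTORC1, at -0.29 ± 0.31 for Tigar, which diverts glucose from glycolysis, and at -0.13 ± 0.30 for Trp53inp1, a p53 cofactor that also acts in autophagy. The repair genes were at 0.041 ± 0.19 for Polk, a polymerase that copies past damaged bases, and at -0.0057 ± 0.18 for Ercc5, a nuclease of nucleotide excision repair. The intervals of these 5 genes reached from -0.92 to 0.50. The replicate block moved Tigar to -0.12 ± 0.31 and Ercc5 to 0.13 ± 0.17. Xist was high in 2 of 4 FancgKO and 0 of 4 WT libraries with PBS, and with Xist as a covariate the differences of Trp53inp1 and Sertad1 became 0.20 and -0.12.

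Other p53 genes are set beside these for context. Of 13 tested apoptosis targets of p53, 13 were positive and 0 were called in FancgKO against WT with PBS, with a median log2 difference of 0.27. Marker lists moved beside them: 9 of 11 myeloid progenitor markers were positive (median 0.59), with sums of 2334 to 14420 in FancgKO and 1648 to 13220 in WT, and 0 of 9 lymphoid progenitor markers (median -0.48), with sums of 2528 to 4806 in FancgKO and 3178 to 5909 in WT. Of the erythroid markers 5 of 6 were positive (median 0.43) and of the proliferation genes 17 of 20 (median 0.13), none of these lists held a called gene, and their part in the apoptosis counts was not tested. Of 16 other targets for arrest, stress and repair, 6 were positive, 10 negative and 0 called, with a median of -0.053. Of 10 regulators of p53, 7 were positive and 0 called, with a median of 0.015. The contrast between apoptosis and arrest targets in these counts was not tested.

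**Figure D2:**
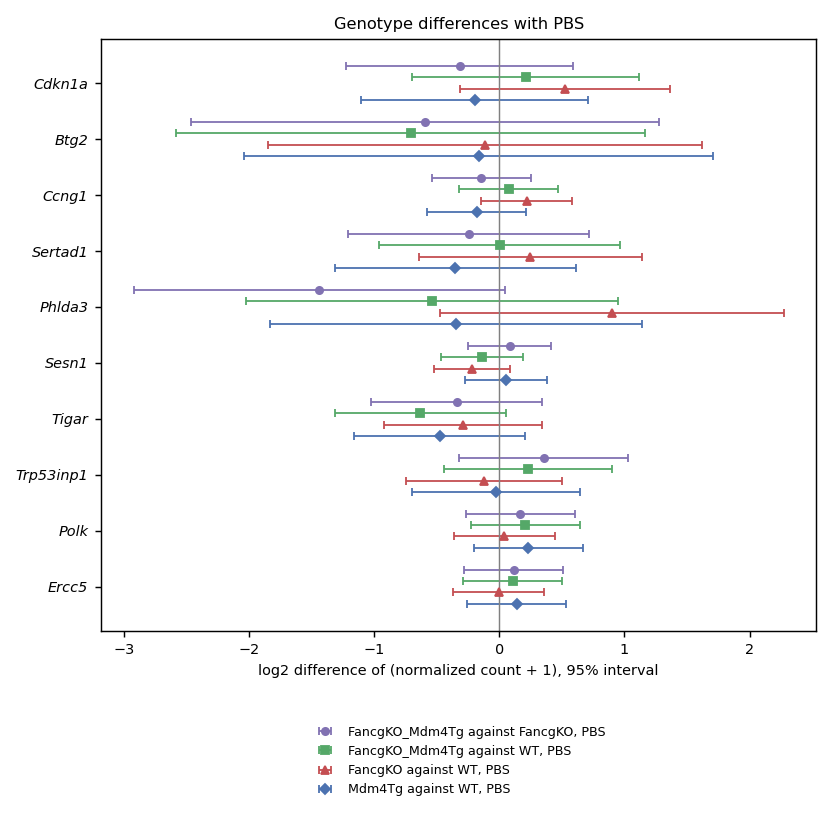
Log2 difference of the normalised count plus 1 (horizontal axis) with its 95% interval for each gene in 4 genotype comparisons under PBS: FancgKO_Mdm4Tg against FancgKO, FancgKO_Mdm4Tg against WT, FancgKO against WT and Mdm4Tg against WT. Every interval crosses 0, from the narrowest, those of Sesn1, to the widest, those of Btg2.

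The Mdm4 transgene raises the level of a partner that holds p53 in check, and the comparisons with it ask whether the targets fall. In FancgKO_Mdm4Tg against FancgKO with PBS, 0 of the 10 genes passed, against 0.00792% of all genes, the single call being Mdm4 itself. Cdkn1a stood at 29.17, 37.95 and 23.80 in FancgKO_Mdm4Tg with PBS, a spread inside that of FancgKO given above. Its log2 difference was -0.32 ± 0.44 (SE, n = 3 and 4; limma adjusted p = 0.939), with a positive sign within libraries ending _d (0.011). Phlda3, at 0, 3.45 and 5.10 in FancgKO_Mdm4Tg with PBS, differed by -1.44 ± 0.72 (SE), again a description because of the filter. Its 2 FancgKO libraries above 10 lay over all 3 FancgKO_Mdm4Tg libraries and the other 2 within that range and just above it. The 10 genes split into 4 positive and 6 negative, with a median of -0.19, beside 51.1% positive and a median of 0.0063 over all genes. Xist was high in 0 of 3 FancgKO_Mdm4Tg and 2 of 4 FancgKO libraries with PBS. With Xist as a covariate the difference of Trp53inp1 went from 0.35 to -0.050.

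Against WT with PBS, 0 of the 10 genes passed in FancgKO_Mdm4Tg (0.00792% of all genes) and 0 in Mdm4Tg (0.00792% of all genes). Tigar had the lowest unadjusted p in both, at 13.26, 12.07 and 15.30 in FancgKO_Mdm4Tg and 17.19, 11.79 and 16.98 in Mdm4Tg, against 22.89, 28.32, 25.08 and 12.89 in WT with PBS. A single WT library overlapped with the transgenic ones and the other 3 lay above all of them. The same 3 WT libraries also lay above all 4 FancgKO libraries with PBS, which carry no transgene, at 13.04 to 20.45. The log2 differences of Tigar were -0.63 ± 0.33 for FancgKO_Mdm4Tg (SE, n = 3 and 4; limma adjusted p = 1.00) and -0.48 ± 0.33 for Mdm4Tg (limma adjusted p = 0.999). Both comparisons share the WT libraries. With poly(I:C), 0 of the 10 genes passed in FancgKO_Mdm4Tg against FancgKO (0.00792% of all genes) and 0 in FancgKO against WT (0% of all genes), where 9 of 10 were positive with a median of 0.25. Phlda3 was at 1.42 ± 0.77 (SE, n = 3 and 3; limma adjusted p = 1.00), with 6.99, 4.34 and 4.93 in FancgKO against 2.47, 0 and 2.82 in WT with poly(I:C). The 2 groups did not overlap, as 2.72% of all genes did not, at no more than 14 reads in any library.

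Averaged over the 4 backgrounds, 0 of the 10 genes passed for the Mdm4 transgene (0.00792% of all genes) and 0 for loss of Fancg (0.0158% of all genes). Phlda3, which had passed the filter through FancgKO libraries without the transgene, was at -0.51 for the transgene and 0.43 for loss of Fancg. For the transgene the other differences ran from -0.36 for Btg2 to 0.18 for Ercc5, and Cdkn1a was at -0.15 ± 0.24 (SE; 95% interval -0.65 to 0.35; limma adjusted p = 0.953). The 10 transgenic libraries held Cdkn1a at 13.45 to 47.14, within the 9.42 to 57.75 of the 14 others. Xist was high in 6 of those others and in none of the transgenic libraries, so the 2 sets were not balanced in Xist. Of the apoptosis targets, 12 of 13 were negative with 0 called and a median of -0.13. Beside them 0 of 11 myeloid progenitor markers were positive (median -0.50), with sums of 2032 to 13140 with the transgene and 1648 to 23660 without, and 9 of 9 lymphoid progenitor markers (median 0.46), with sums of 2467 to 6895 with the transgene and 1784 to 5909 without. Immediate early genes were positive for 0 of 12 (median -0.42) and proliferation genes negative for 15 of 20 (median -0.094), 0 genes of these 4 lists were called, and their part in the apoptosis count was not tested. For loss of Fancg the differences other than that of Phlda3 ran from -0.33 for Btg2 to 0.37 for Cdkn1a, with 7 of all 10 positive and a median of 0.13, beside 49.2% positive over all genes. Ccng1 was at 0.24 ± 0.11 and had the only unadjusted p under 0.05 of the 10 (0.0305; limma adjusted p = 1.00), and Cdkn1a at 0.37 ± 0.24 became -0.083 within libraries ending _d.

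Poly(I:C) drives stem cells into division, and its comparison with PBS asks how the arrest and repair genes respond. Averaged over the 4 genotypes, 3 of the 10 passed, beside 23.6% of all genes. Sesn1 and Trp53inp1 fell (2 of 10, beside 11.6% of all genes called lower) and Tigar rose (1 of 10, beside 11.9% called higher). These shares are near those of all genes. The 10 genes had a median of -0.18, beside 0.013 over all genes, with 3 positive.

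Sesn1 stood at 182.1 and 184.4 in FancgKO_Mdm4Tg, 179.8, 224.7 and 201.0 in FancgKO, 204.3 and 243.0 in Mdm4Tg, and 155.8, 192.2 and 229.7 in WT with poly(I:C). With PBS it stood at 275.8, 261.3 and 331.5 in FancgKO_Mdm4Tg, 297.6, 324.1, 204.5 and 277.7 in FancgKO, 352.0, 324.1 and 312.5 in Mdm4Tg, and 368.1, 275.2, 302.7 and 329.6 in WT. A single FancgKO library with PBS fell within the poly(I:C) range, and within genotypes FancgKO alone overlapped. Of all genes, 23.9% did not overlap between treatments in FancgKO_Mdm4Tg, 4.25% in FancgKO, 37.0% in Mdm4Tg and 11.3% in WT. The log2 difference was -0.59 ± 0.088 (SE, n = 10 and 14; 95% interval -0.78 to -0.41; limma adjusted p = 4.54e-04). Within libraries ending _d it was -0.54 ± 0.12 (n = 6 and 6) and within those ending _d_2 -0.60 ± 0.088 (n = 4 and 8). The 4 poly(I:C) libraries ending _d_2 are 1 per genotype, all with replicate number 8. Each SE within _d_2 therefore rests on the spread among PBS libraries alone.

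Trp53inp1 stood at 165.3 and 207.5 in FancgKO_Mdm4Tg, 143.3, 170.4 and 215.5 in FancgKO, 96.73 and 214.9 in Mdm4Tg, and 89.88, 165.6 and 204.6 in WT with poly(I:C). With PBS it stood at 355.3, 311.3 and 399.5 in FancgKO_Mdm4Tg, 339.9, 389.3, 162.1 and 271.1 in FancgKO, 387.1, 229.8 and 290.5 in Mdm4Tg, and 412.0, 193.8, 257.5 and 401.9 in WT. The lowest values in both treatments were libraries ending _d, and through them the treatments overlapped. The log2 difference was -0.92 ± 0.18 (SE, n = 10 and 14; 95% interval -1.29 to -0.55; limma adjusted p = 0.00158). It was -0.86 ± 0.20 within _d and -0.81 ± 0.096 within _d_2.

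Tigar stood at 17.97 and 25.47 in FancgKO_Mdm4Tg, 33.96, 17.37 and 42.48 in FancgKO, 28.35 and 32.64 in Mdm4Tg, and 21.44, 17.74 and 39.74 in WT with poly(I:C). With PBS it stood at 13.26, 12.07 and 15.30 in FancgKO_Mdm4Tg, 17.23, 13.04, 20.45 and 19.60 in FancgKO, 17.19, 11.79 and 16.98 in Mdm4Tg, and 22.89, 28.32, 25.08 and 12.89 in WT. All transgenic libraries with poly(I:C) lay above all transgenic ones with PBS of the same genotype, whereas the FancgKO and WT groups overlapped. The shares of all genes without overlap, given above for each genotype, were highest in these same transgenic groups. The log2 difference was 0.63 ± 0.18 (SE, n = 10 and 14; 95% interval 0.25 to 1.01; limma adjusted p = 0.0169), with 0.39 ± 0.25 within _d and 1.07 ± 0.24 within _d_2. Without FancgKO_Mdm4Tg replicate 8 given poly(I:C) it was 0.57, and the call was lost (limma adjusted p = 0.0626), while 1554 of all genes passed in place of 2974.

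Within the 6 and 6 libraries ending _d, limma called 0 of the 10 genes and 0% of all genes. Within the 4 and 8 ending _d_2 it called 5 of the 10, beside 34% of all genes, namely Sesn1, Trp53inp1, Tigar, Ccng1 at 0.32 ± 0.081 (limma adjusted p = 0.0101) and Btg2 at -0.54 ± 0.15 (limma adjusted p = 0.0192). Sesn1 and Trp53inp1 were lower and Tigar higher there without overlap, which held for 24.7% of all genes. With the title ending as a covariate over all 24 libraries 5 of the 10 genes passed, beside 34.8% of all genes. They were Sesn1, Trp53inp1, Tigar, Btg2 at -0.54 ± 0.11 and Ccng1 at 0.18 ± 0.066 (limma adjusted p = 0.00136 and 0.0373 for Btg2 and Ccng1). Btg2 was at -0.64 ± 0.14 within _d, where it did not pass (limma adjusted p = 0.341). It lay at 222.8 to 456.9 with poly(I:C) and 323.4 to 683.6 with PBS in _d, and at 54.44 to 76.37 with poly(I:C) and 66.29 to 137.9 with PBS in _d_2. Without that covariate its difference was -0.16 ± 0.50.

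Cdkn1a gave no call for poly(I:C). Its normalised counts ran from 20.32 to 33.36 (median 30.90) with poly(I:C) and from 9.42 to 57.75 (median 27.94) with PBS, so the poly(I:C) values lay inside the PBS range. The log2 difference was 0.033 ± 0.24 (SE, n = 10 and 14; 95% interval -0.47 to 0.53; limma adjusted p = 0.938), and it was -0.36 ± 0.22 within _d and 0.22 ± 0.32 within _d_2. Sertad1, at -0.20 ± 0.26, and Phlda3, at -0.25 ± 0.39, did not pass. The repair genes Polk, at -0.19 ± 0.12, and Ercc5, at -0.10 ± 0.11, did not pass either (limma adjusted p = 0.243 and 0.489). Polk ran from 42.88 to 98.62 with poly(I:C) and from 62.07 to 100.2 with PBS, and Ercc5 from 39.74 to 64.70 with poly(I:C) and from 37.26 to 61.29 with PBS, so both overlapped widely.

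**Figure D3:**
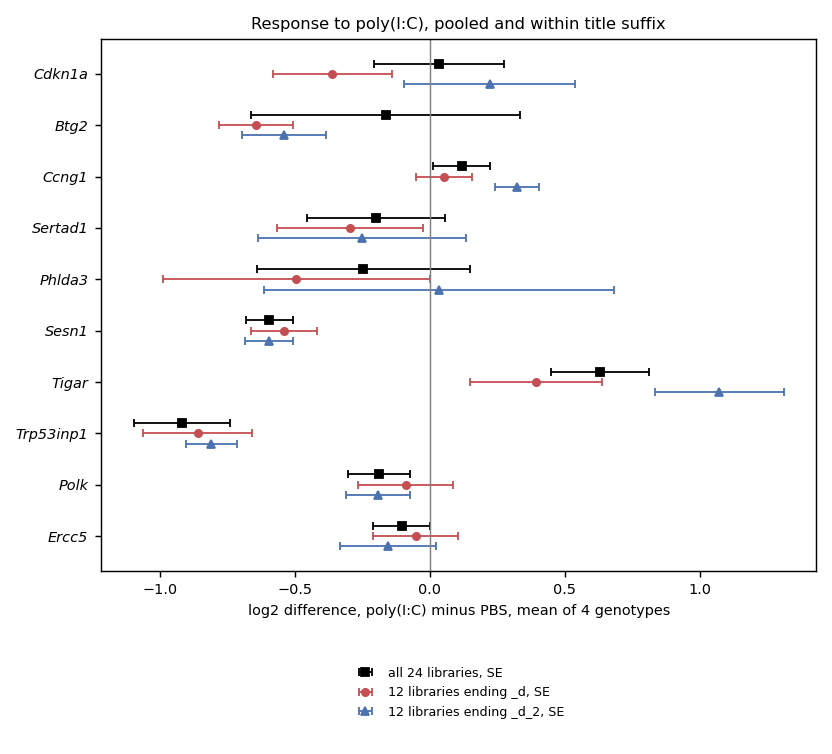
Log2 difference of poly(I:C) minus PBS (horizontal axis, mean of 4 genotypes) for each gene, with its SE, in all 24 libraries (black squares), the 12 ending _d (red circles) and the 12 ending _d_2 (blue triangles). Sesn1 and Trp53inp1 lie left of 0 and Tigar right of 0 in each set, while Cdkn1a is at -0.36 in _d and 0.22 in _d_2.

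Within single genotypes the response to poly(I:C) called none of the 10 genes in FancgKO_Mdm4Tg (0% of all genes), FancgKO (0%), Mdm4Tg (0%) or WT (0.0158%). In WT, Sesn1 was at -0.73 ± 0.16 (SE, n = 3 and 4; limma adjusted p = 0.0606) and Trp53inp1 at -1.05 ± 0.33 (limma adjusted p = 0.142). The WT libraries can be read as pairs by replicate number, and with that block both passed, Sesn1 at -0.68 ± 0.10 and Trp53inp1 at -0.92 ± 0.15 (limma adjusted p = 0.00109 and 0.00157), beside 6.88% of all genes. Both also passed in WT with the title ending as a covariate (2.77% of all genes), and without WT replicate 6 given PBS, at -0.80 and -1.26 (limma adjusted p = 0.0150 and 0.0361). Under the block Sesn1 and Trp53inp1 passed as well in Mdm4Tg (4.85% of all genes) and FancgKO_Mdm4Tg (1.08% of all genes), which share only 2 replicate numbers between treatments. In FancgKO they were at -0.43 ± 0.16 and -0.66 ± 0.33 without the block and at -0.34 ± 0.11 and -0.48 ± 0.16 with it, and passed in neither fit (limma adjusted p = 0.287 and 0.285 with the block). Whether the response differed between genotypes was tested directly: 0 of the 10 genes passed for FancgKO minus WT (0% of all genes) and 0 for libraries with the transgene minus those without (0% of all genes), with intervals for Sesn1 of -0.17 to 0.77 and -0.38 to 0.34.

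Markers of other progenitor types moved with poly(I:C), averaged over genotypes. Rose and fell here count called genes, beside 11.9% of all genes called higher and 11.6% called lower. Of 11 myeloid progenitor markers 11 rose, with a median log2 difference of 1.78, and their summed normalised count ran from 6103 to 23660 with poly(I:C) and from 1648 to 14420 with PBS. Of 9 lymphoid progenitor markers 9 were negative and 5 of them called, with a median of -1.11. Their sums were 1784 to 3596 with poly(I:C) and 2528 to 6895 with PBS. Stem cell markers fell for 7 and rose for 1 of 11 (median -0.69), erythroid markers rose for 5 of 6 (median 1.57), and proliferation genes rose for 11 and fell for 1 of 20 (median 0.31). Of the 4 mature blood cell markers tested 3 rose, and all 15 listed summed to 207.3 to 407.0 with poly(I:C) and 142.5 to 267.9 with PBS, where Ly6g, a neutrophil marker, was at 0 in all libraries. In bulk cells, fewer cells of a type and less RNA per cell cannot be told apart, and the part of these shifts in the values of Sesn1, Trp53inp1 and Tigar was not tested.

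The other p53 genes gave mixed directions under poly(I:C). Of 16 other arrest, stress and repair targets 2 were called higher and 2 lower, with a median of 0.015. Of all genes 11.9% were called higher and 11.6% lower, so these shares are near those of all genes. The risers were Rps27l, at 0.76 ± 0.16, and Gtse1, at 0.58 ± 0.18, and those that fell were the damage sensors Xpc, at -0.27 ± 0.073, and Ddb2, at -0.37 ± 0.13. Of 13 apoptosis targets 4 were called higher and 0 lower, with a median of 0.37, led by Dram1 at 1.504 ± 0.42 and Pmaip1 at 0.93 ± 0.27. Of 10 regulators, Mdm4 itself fell, by 0.22 on the log2 scale (SE 0.076; limma adjusted p = 0.0425), and no other passed. This too is near the 11.6% of all genes called lower. The average for Mdm4 includes the transgenic groups, where the count does not separate transgene from endogenous RNA. Mean Mdm4 with PBS and with poly(I:C) was 6681 and 5512 in Mdm4Tg, and 6225 and 5461 in FancgKO_Mdm4Tg. It was 1066 and 874.1 in FancgKO, and 899.5 and 825.7 in WT. No regulator was called within any single genotype.

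More of the 10 genes passed between the title endings than in any comparison of the study's groups. Over 12 libraries ending _d against 12 ending _d_2, with group means in the fit, 7 of the 10 passed, beside 45.3% of all genes. Btg2, Sertad1 and Cdkn1a were higher in _d (3 of 10, beside 21.7% of all genes), and Trp53inp1, Ccng1, Polk and Sesn1 were lower (4 of 10, beside 23.6%). Sertad1 passed the filter on low values through libraries ending _d, so its place in these counts is a description. This comparison was added after the values had been seen.

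Btg2 lay at 222.8 to 683.6 (median 379.9) in _d libraries and 54.44 to 137.9 (median 78.20) in _d_2 libraries, with no overlap, as 4.2% of all genes did. The log2 difference was 2.28 ± 0.11 (SE, n = 12 and 12; limma adjusted p = 8.57e-13). Cdkn1a lay at 26.13 to 54.05 (median 33.16) in _d and 9.42 to 57.75 (median 23.65) in _d_2, at 0.59 ± 0.20 (limma adjusted p = 0.0222), and without Mdm4Tg replicate 7 given PBS it was 0.45 and did not pass (limma adjusted p = 0.0805). Sertad1 was at 0.73 ± 0.21 (limma adjusted p = 0.00670). Trp53inp1 lay at 89.88 to 311.3 (median 168.0) in _d and 204.6 to 412.0 (median 347.6) in _d_2, at -0.66 ± 0.11 (limma adjusted p = 3.24e-05). Ccng1 was at -0.37 ± 0.065, Sesn1 at -0.21 ± 0.069 and Polk at -0.25 ± 0.098 (limma adjusted p = 8.27e-05, 0.0144 and 0.0415). With Xist as a covariate Sertad1, Sesn1 and Polk did not pass, and leaving out any of 15 single libraries ended the call of Polk.

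Immediate early genes, which are transcribed within minutes of a stimulus, went with the endings: 12 of 12 were higher in _d, with a median log2 difference of 3.01. Counts in this paragraph are of called genes, beside 21.7% of all genes called higher in _d and 23.6% called lower. Fos lay at 1241 to 4035 in _d and 31.82 to 229.1 in _d_2. Of 16 other arrest, stress and repair targets 5 were higher and 2 lower in _d, together near the 45.3% of all genes called. Among those higher were the kinase genes Plk2 at 3.54 ± 0.34 and Plk3 at 1.97 ± 0.22. Lymphoid progenitor markers were lower in _d for 8 of 9 (median -1.25), with sums of 1784 to 4371 in _d and 2518 to 6895 in _d_2, and myeloid progenitor markers were higher for 5 of 11. The part of these shifts in the difference of Btg2 was not tested.

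**Figure D4:**
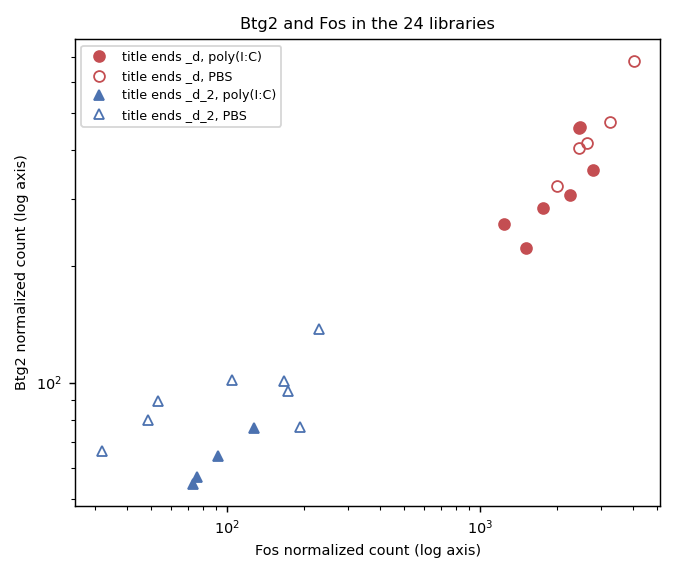
Normalised count of Btg2 (vertical log axis) against Fos (horizontal log axis) in the 24 libraries; filled symbols are poly(I:C), open symbols PBS, red circles libraries ending _d and blue triangles libraries ending _d_2. The endings form 2 clouds, with Btg2 at 222.8 or more and Fos at 1241 or more in _d, and both treatments in each.

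The genes most like each member were taken as the 3 with the highest Pearson r of log2 values over the 24 libraries. These values share depth and title ending. For the neighbours of Btg2 and Cdkn1a and for Flt3, r is therefore also given over the 12 libraries of each ending. For Btg2 they were Klf6 (r = 0.979), Zfp36 (0.977) and Rgs2 (0.973). Within _d and _d_2, Klf6 had r = 0.849 and 0.773, Zfp36 0.915 and 0.849, and Rgs2 0.861 and 0.701. For Sesn1 they were Gimap5 (0.940), Flt3 (0.927) and Tapt1 (0.920), and Flt3, a receptor of lymphoid-primed progenitors, kept r = 0.892 in _d and 0.929 in _d_2. For Trp53inp1 they were Smim14 (0.927), Rnf144a (0.920) and Adgrl4 (0.919), and for Tigar Mrpl16 (0.862), Znhit3 (0.844) and Umps (0.833). Those of Ccng1, at 0.883 to 0.925, were Fam111a, Atad1 and Rbbp7. Cdkn1a had weaker neighbours, Atp6v0c (0.766), Selplg (0.751) and Gm8730 (0.732). Within _d and _d_2, Atp6v0c was at 0.277 and 0.941, Selplg at 0.554 and 0.755, and Gm8730 at -0.0996 and 0.857. Among the 10 genes themselves, the 45 pairs had r from -0.725 to 0.863 with a median of -0.035, so they did not move as a single block across the libraries.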

How the data were processed

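Polyadenylated RNA of sorted LSK cells was measured in 24 libraries of 8 groups, per the labels. The authors deposited 1 table of signal values, named normalized counts in the file name, with a row per gene and a column per library. The submitters' processing notes name STAR and mm10, and the counter, its strand setting and the normalization are not given in the sources used here. Dividing each column by its smallest positive value gave whole reads for 100% of values (relative tolerance 1e-06). The 12628 genes that reached 10 in 2 or more libraries were kept. Their values, as log2(value + 1), entered limma 3.58.1 under R 4.3.3 as a model of 8 groups with eBayes trend and Benjamini-Hochberg adjustment at 0.05. The whole reads were tested again in edgeR 4.0.16, which called 3622 genes for poly(I:C) against PBS averaged over genotypes, and DESeq2 1.42.0, which called 3697 (limma 2974). Scripts were tested on simulated data. Levels per kilobase used exon lengths of GENCODE vM21, and 10006 genes without a symbol in the table were named from it.

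All 10 genes were tested in every comparison. The text names those its sentences turn on and gives the others, and the comparison lists, by counts and ranges. The members and lists were chosen with earlier results of these data known. Libraries of the same replicate number correlated at a median of 0.343 (61 pairs, group means removed), those of another number with the same title ending at 0.243, and those of the other ending at -0.255. Comparisons with 3 shared numbers, all above 0.1, can be read as paired: FancgKO, FancgKO_Mdm4Tg and Mdm4Tg against WT with PBS, FancgKO against WT with poly(I:C), and poly(I:C) in WT. Printed values come from the fit without the block, and those with it are given where they change a call or move a value by over 1.5 times. Alternatives were pseudocounts of 0.5 and 5, no filter, a mean of at least 50, TMM scaling, no trend, only the compared groups, the replicate block, the title ending or Xist as a covariate, and leaving out each library. The comparison of title endings and the fits within each ending were chosen after seeing the data.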

Additional observations from a re-analysis of the deposited data

How the results depend on the processing

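The genotype comparisons called 0 of the 10 genes under every alternative run, and DESeq2 and edgeR on recovered reads called 3 for averaged poly(I:C) and 7 for the title endings, the numbers limma gave. Under the alternatives other than leaving out a library, 203 counts of called genes stayed within 1.5 times of the reported count and 11 did not. For poly(I:C) averaged over genotypes, reported at 3, the title ending as a covariate gave 5, libraries ending _d_2 alone 5 and those ending _d alone 0. For poly(I:C) in WT, reported at 0, the replicate block gave 2, the title ending as a covariate 2, libraries ending _d_2 alone 1 and DESeq2 1. The replicate block also gave 2 in Mdm4Tg and 2 in FancgKO_Mdm4Tg, where libraries ending _d_2 alone gave 1. For the title endings, reported at 7, Xist as a covariate gave 4. Leaving out single libraries gave 0 to 2 for poly(I:C) in WT. The fits of libraries ending _d_2 alone hold 1 poly(I:C) library per genotype, so their counts rest on no spread among poly(I:C) libraries. The cause of these shifts was not tested. The block changed no call in the paired genotype comparisons.

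Single genes changed sign only where their reported difference had not passed. With libraries ending _d alone, Cdkn1a was at -0.11 for FancgKO against WT, 0.011 for FancgKO_Mdm4Tg against FancgKO and 0.21 for Mdm4Tg against WT (all PBS), at -0.083 for loss of Fancg, 0.089 for the transgene, -0.36 for averaged poly(I:C) and 0.29 for the poly(I:C) response of FancgKO minus WT, and Tigar was at -0.43 for poly(I:C) in WT. With libraries ending _d_2 alone, Btg2 was at 0.14 and 0.063 and Sertad1 at -0.16 for FancgKO against WT (Btg2 with PBS and with poly(I:C), Sertad1 with PBS), Trp53inp1 at -0.11 for FancgKO_Mdm4Tg against WT with PBS and 0.12 for the poly(I:C) response with the transgene minus without, and Phlda3 at 0.034 for averaged poly(I:C), while Sesn1 was at -0.026 for the response of FancgKO minus WT and 0.033 for that with the transgene minus without. The replicate block gave Cdkn1a 0.17 for FancgKO_Mdm4Tg against FancgKO with PBS, 0.086 for the transgene and 0.13 for the response of FancgKO minus WT, and Ercc5 0.13 for FancgKO against WT with PBS. Xist as a covariate gave Btg2 0.11 in poly(I:C)-treated FancgKO against WT, Cdkn1a -0.0057 for averaged poly(I:C), Phlda3 -0.10 for the title endings, Sertad1 -0.12 and Trp53inp1 0.20 for FancgKO against WT with PBS, and Trp53inp1 -0.050 for FancgKO_Mdm4Tg against FancgKO with PBS. For Cdkn1a under averaged poly(I:C), edgeR gave -0.054, DESeq2 -0.075 and the title ending as a covariate -0.064.

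Leaving out single libraries moved FancgKO against WT with PBS over -0.52 to 0.31 for Btg2, -0.11 to 0.13 for Ercc5, -0.075 to 0.15 for Polk, -0.11 to 0.58 for Sertad1 and -0.34 to 0.13 for Trp53inp1. It moved Btg2 over -1.11 to 0.55 in poly(I:C)-treated FancgKO against WT and over -0.44 to 0.11 for averaged poly(I:C). Cdkn1a moved over -0.72 to 0.15 for Mdm4Tg against WT (PBS), over -0.46 to 0.24 for the response of FancgKO minus WT and over -0.080 to 0.16 for averaged poly(I:C). Phlda3 moved over -0.20 to 0.15 for the title endings, Tigar over -0.13 to 0.43 for poly(I:C) in WT, and Trp53inp1 over -0.41 to 0.16 and Sesn1 over -0.092 to 0.048 for the response with the transgene minus without. Depth limits Phlda3 and Sertad1, with at most 14 and 23 reads, and in groups of 2 a lone library left after an omission is assumed to vary like the other groups.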
